A study of Mus musculus with 10 samples.

Results

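The circadian clock genes described here are the activators Clock and Npas2, the period genes Per1, Per2 and Per3, the cryptochromes Cry1 and Cry2, the nuclear receptors Nr1d1 and Nr1d2 (also called REV-ERB alpha and beta), and the output factor Dbp. They were taken by symbol from a table of read counts, where all 10 were found among 21877 symbols, and all 10 passed the filter on low counts, which kept 15385 genes. The table holds RNA of peritoneal tissue from male C57BL/6 mice that carried Mr1 on both alleles (Mr1+/+) or on neither (Mr1-/-). Mr1 presents microbial metabolites to mucosal-associated invariant T cells. The mice received 4.25% peritoneal dialysis (PD) fluid, a glucose-rich solution, or the same volume of PBS by intraperitoneal injection for 6 weeks. There were 2 libraries of Mr1-/- PD fluid, 2 of Mr1-/- PBS, 3 of Mr1+/+ PD fluid and 3 of Mr1+/+ PBS. The labels used here give no age of the mice, no lighting schedule and no hour of tissue collection.

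The mammalian clock is a feedback loop that runs in nearly every cell. CLOCK or its paralog NPAS2 pairs with BMAL1 (gene Arntl) and switches on the period and cryptochrome genes, Nr1d1, Nr1d2 and Dbp through E-boxes. PER and CRY proteins then block the activators, and the REV-ERB receptors repress Arntl and Npas2 through sites shared with the ROR receptors. The activator genes and their targets therefore peak at different times of day, and in a single tissue sample their relative levels depend on the hour at which it was taken. Per1 also responds to glucocorticoids.

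Libraries held 14145635 to 16335799 counts. Levels are given as CPM, counts scaled to a common library total after TMM adjustment. Replicates 1 and 2 of Mr1-/- PD fluid were near-identical, with a mean chi-square of 1.74 over genes, and so were replicates 1 and 2 of Mr1+/+ PBS (2.23), while the other 6 pairs within groups gave 18.6 to 118. Each of these pairs was summed and counted as 1 sample, so n is 1 for Mr1-/- PD fluid, 2 for Mr1-/- PBS, 3 for Mr1+/+ PD fluid and 2 for Mr1+/+ PBS. The single sample of Mr1-/- PD fluid borrows its spread from the other groups. The labels do not say which animal gave which library, so p-values speak only of how far these samples scatter, which may be technical scatter. The 4 Mr1-/- libraries held 1.97 to 2.46 CPM of Mr1 itself, against 20.3 to 32.7 CPM in the 6 Mr1+/+ libraries. Markers of other tissues differed between libraries. The 8 intestinal epithelium genes summed to 2209.2 CPM in Mr1+/+ PBS replicate 3 and to 24.6 to 36.0 CPM elsewhere. The 8 pancreatic acinar genes summed to 26374.4 CPM in that library and to 5338.6 and 5449.4 CPM in Mr1-/- PD fluid. They summed to 3305.4 and 3884.0 CPM in Mr1+/+ PD fluid replicates 2 and 3 and to 147 to 664 CPM in the remaining libraries. The 10 mesothelial markers, those of the cells that line the peritoneum, were detected in every library and summed to 86.4 to 512 CPM in 9 of them. Their sum was 1030.4 CPM in Mr1+/+ PBS replicate 3, of which Krt8 and Krt19, keratins of many epithelia, made up 585 and 341 CPM. In each library this was below the 8 B cell markers at 1179.8 to 3392.8 CPM and the 10 adipocyte markers at 5310.4 to 24686.3 CPM.

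Promoters were searched for elements that clock factors are known to bind. RefSeq promoters (GRCm38.p6, the build also called mm10; each from 250 bases before to 50 bases after a start site) were found for 9 of the 10 genes. They were searched on both strands for the E-box CACGTG, its variant CACGTT, the D-boxes TTATGTAA and TTACGTAA that DBP and its relatives bind, the ROR element core TAGGTCA and the cAMP response element TGACGTCA. The matched letters do not overlap each other in the promoters printed. Capitals mark the matches, and all sequences run 5′ to 3′ on the strand of the gene.
Per3 promoter, chr4:151044616-151044915, minus strand: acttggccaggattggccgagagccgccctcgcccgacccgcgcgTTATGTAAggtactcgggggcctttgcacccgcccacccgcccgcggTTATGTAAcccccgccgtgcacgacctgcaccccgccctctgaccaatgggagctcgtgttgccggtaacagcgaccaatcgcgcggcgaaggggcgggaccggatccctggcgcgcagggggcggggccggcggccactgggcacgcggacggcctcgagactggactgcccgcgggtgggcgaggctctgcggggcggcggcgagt
Per1 promoter, chr11:69098699-69098998, plus strand: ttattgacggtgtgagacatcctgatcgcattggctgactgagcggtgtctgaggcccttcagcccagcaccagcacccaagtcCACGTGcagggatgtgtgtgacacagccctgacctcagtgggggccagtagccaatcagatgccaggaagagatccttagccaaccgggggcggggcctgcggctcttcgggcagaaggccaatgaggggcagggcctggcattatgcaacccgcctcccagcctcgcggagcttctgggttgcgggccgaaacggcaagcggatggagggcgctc
Nr1d1 promoter, chr11:98775328-98775627, minus strand: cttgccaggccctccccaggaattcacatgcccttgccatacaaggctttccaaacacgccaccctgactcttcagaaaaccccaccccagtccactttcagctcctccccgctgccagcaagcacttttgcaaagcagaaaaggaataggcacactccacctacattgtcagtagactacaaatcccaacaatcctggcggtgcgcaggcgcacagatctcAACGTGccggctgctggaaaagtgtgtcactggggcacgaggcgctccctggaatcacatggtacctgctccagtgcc
Ciart promoter, chr3:95882179-95882478, minus strand: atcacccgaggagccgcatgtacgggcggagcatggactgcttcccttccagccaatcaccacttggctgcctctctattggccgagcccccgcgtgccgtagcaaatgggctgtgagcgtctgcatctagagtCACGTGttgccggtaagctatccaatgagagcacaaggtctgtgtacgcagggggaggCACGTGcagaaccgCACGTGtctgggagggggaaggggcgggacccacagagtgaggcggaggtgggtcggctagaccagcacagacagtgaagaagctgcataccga
Arntl promoter, chr7:113207261-113207560, plus strand: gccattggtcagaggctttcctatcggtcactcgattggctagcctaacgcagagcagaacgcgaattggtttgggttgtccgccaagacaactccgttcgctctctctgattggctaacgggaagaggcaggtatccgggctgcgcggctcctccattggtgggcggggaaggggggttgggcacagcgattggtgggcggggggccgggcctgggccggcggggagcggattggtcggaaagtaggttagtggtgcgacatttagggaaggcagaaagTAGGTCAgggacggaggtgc
Nfil3 promoter, chr13:52980990-52981289, minus strand: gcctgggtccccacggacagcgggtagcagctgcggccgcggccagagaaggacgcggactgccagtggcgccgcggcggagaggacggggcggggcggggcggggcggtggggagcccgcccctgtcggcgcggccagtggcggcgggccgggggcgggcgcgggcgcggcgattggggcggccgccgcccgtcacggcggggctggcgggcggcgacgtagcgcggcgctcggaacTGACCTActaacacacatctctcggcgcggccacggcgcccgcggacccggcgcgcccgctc

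Per3, Per1 and Nr1d1 are shown as members that hold a match and were lowest in Mr1+/+ PD fluid replicates 2 and 3. Ciart, a clock repressor, Arntl and Nfil3, the gene of the D-box repressor E4BP4, are shown as genes outside the 10 that varied with or against them. Per3 held the D-box TTATGTAA at 2 places, which begin 205 and 158 bases before its start site. At least 1 match stood in 0.938% of the 32851 promoters in the table and 2 or more in 0.0213%. Per1 held an E-box 166 bases before the start, and Ciart held 3 E-boxes. An E-box stood in 7.15% of all promoters. Nr1d1 held the variant CACGTT on the other strand (AACGTG as printed), as 4.68% of all promoters did. Cry1, whose level hardly varied, held an E-box 60 bases before its start and CACGTT on the other strand 79 bases before it, and Cry2 held CACGTT on the other strand 166 bases before its start. The table has a further Per1 promoter, at a start site downstream, with none of the 6 motifs. Arntl held the ROR element core 30 bases after the start and Nfil3 held it on the other strand 12 bases before the start, against 2.61% of all promoters. A further Arntl promoter, at a start site upstream, held none of the 6 motifs. None of the 10 genes' promoters in the table held TAGGTCA, TTACGTAA or TGACGTCA, and Dbp, Nr1d2, Npas2 and Clock held none of the 6 motifs in this window. A match is a description of letters, and no match speaks only of this window.

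The clearest pattern was within a group and not between groups. In Mr1+/+ PD fluid, replicates 2 and 3 had the highest Npas2 and the lowest Dbp, Per3, Nr1d2, Per1 and Nr1d1 of all 10 libraries, while replicate 1 of the same group had Dbp, Per3 and Nr1d2 above every Mr1+/+ PBS library. The other pattern followed genotype. Dbp, Per2, Per3 and Nr1d2 were higher in every Mr1-/- sample than in every Mr1+/+ sample, as were 6.9% of all tested genes. Npas2 was lower in every Mr1-/- sample, as were 3.78% of all tested genes. No member passed edgeR's test over the 8 samples in any comparison. DESeq2 called Per2 between genotypes under PBS (1.37% of all genes were called). EdgeR on the 10 separate libraries, which counts near-identical pairs as separate samples, called Per2 between genotypes under PBS (0.337% of all). Under PD fluid that fit called Per2, Npas2 and Nr1d1 between genotypes (22.9% of all).

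**Figure D1:**
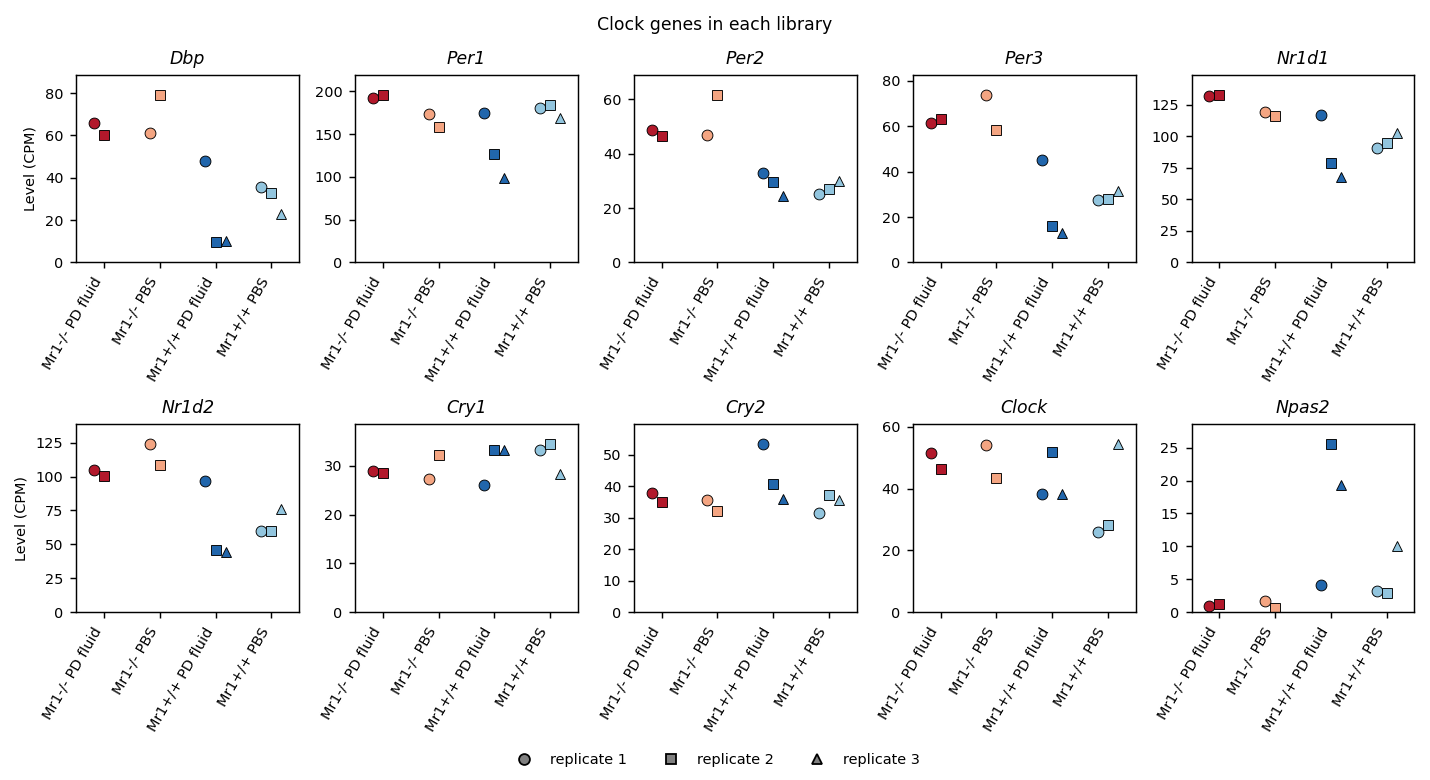
Level of each of the 10 clock genes in each library (y axis, CPM, from 0; x axis, group; marker shape, replicate number). In Mr1+/+ PD fluid, replicates 2 and 3 sit at 9.58 and 10.3 CPM of Dbp and at 25.5 and 19.4 CPM of Npas2, apart from replicate 1 at 48.1 and 4.18 CPM.

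Npas2 (ENSMUSG00000026077.15; mm10 chromosome 1, 39193731 to 39363236, plus strand), the partner of BMAL1 that can stand in for CLOCK, varied most of the 10. It was at 0.869 and 1.29 CPM in Mr1-/- PD fluid, 1.64 and 0.612 CPM in Mr1-/- PBS, 4.18, 25.5 and 19.4 CPM in Mr1+/+ PD fluid, and 3.20, 2.84 and 9.99 CPM in Mr1+/+ PBS libraries, each in replicate order. The highest library exceeded the lowest 41.7-fold, and Npas2 had 9 to 378 counts per library, so its lowest values rest on few reads. All 4 Mr1-/- libraries lay below all 6 Mr1+/+ libraries. Within Mr1+/+, the high values were in PD fluid replicates 2 and 3 and, less so, in PBS replicate 3.

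Clock (ENSMUSG00000029238.11; mm10 chromosome 5, 76209868 to 76304792, minus strand), whose protein is the usual partner of BMAL1 in most tissues, did not follow Npas2. It was at 51.7 and 46.4 CPM in Mr1-/- PD fluid, 54.1 and 43.4 CPM in Mr1-/- PBS, 38.3, 52.0 and 38.4 CPM in Mr1+/+ PD fluid, and 25.9, 28.1 and 54.4 CPM in Mr1+/+ PBS libraries. Mr1+/+ PBS replicate 3 had the highest Clock level, and replicates 1 and 2 of its group had the lowest. That library is also the one with the high intestinal and acinar sums, whose part in its Clock and Npas2 levels was not tested.

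Dbp (ENSMUSG00000059824.12; mm10 chromosome 7, 45705088 to 45710203, plus strand) encodes an activator of output genes and is a direct target of CLOCK and BMAL1. Its level was 65.7 and 60.1 CPM in Mr1-/- PD fluid, 61.1 and 79.2 CPM in Mr1-/- PBS, 48.1, 9.58 and 10.3 CPM in Mr1+/+ PD fluid, and 35.8, 32.6 and 23.0 CPM in Mr1+/+ PBS libraries. The 4 Mr1-/- libraries were above all 6 Mr1+/+ libraries. Mr1+/+ PD fluid replicates 2 and 3 were below every other library, and replicate 1 of that group was above the Mr1+/+ PBS libraries. Of the exon bases of Dbp, 18.01% also lie in exons of Sphk2 on the opposite strand. Sphk2 ranged from 36.9 to 50.1 CPM over the 10 libraries. Without strand information, reads from this overlap cannot be assigned.

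Dbp and Npas2 moved in opposite directions over the libraries. There were 75.6 and 46.5 Dbp counts for each Npas2 count in Mr1-/- PD fluid, 37.2 and 129 in Mr1-/- PBS, 11.5, 0.376 and 0.534 in Mr1+/+ PD fluid, and 11.2, 11.5 and 2.30 in Mr1+/+ PBS libraries. Dbp counts were fewer than Npas2 counts in Mr1+/+ PD fluid replicates 2 and 3 and in no other library.

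**Figure D2:**
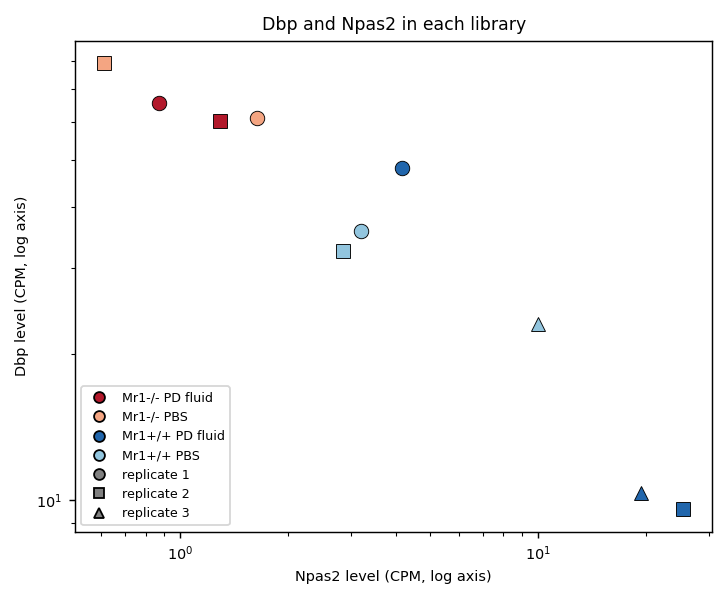
Dbp level (y axis) against Npas2 level (x axis) in each library, both in CPM on log axes; colour marks the group and shape the replicate number. The libraries run from Mr1-/- PBS replicate 2 at 79.2 CPM of Dbp and 0.612 CPM of Npas2 down to Mr1+/+ PD fluid replicates 2 and 3 at 9.58 and 10.3 CPM of Dbp.

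The period genes encode the repressors that close the loop. Per3 (ENSMUSG00000028957.12; mm10 chromosome 4, 151003652 to 151044665, minus strand), whose promoter holds the pair of D-boxes printed above, was at 61.5 and 63.1 CPM in Mr1-/- PD fluid, 73.8 and 58.4 CPM in Mr1-/- PBS, 45.2, 16.2 and 13.0 CPM in Mr1+/+ PD fluid, and 27.3, 27.8 and 31.6 CPM in Mr1+/+ PBS libraries. Like Dbp, Per3 was lowest in Mr1+/+ PD fluid replicates 2 and 3 and higher in every Mr1-/- library than in any Mr1+/+ library.

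Per2 (ENSMUSG00000055866.9; mm10 chromosome 1, 91415982 to 91459324, minus strand) was at 48.7 and 46.4 CPM in Mr1-/- PD fluid, 46.8 and 61.7 CPM in Mr1-/- PBS, 32.9, 29.6 and 24.5 CPM in Mr1+/+ PD fluid, and 25.3, 26.9 and 29.9 CPM in Mr1+/+ PBS libraries. Per2 separated the genotypes with little spread within Mr1+/+, where replicates 2 and 3 of PD fluid did not stand apart.

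Per1 (ENSMUSG00000020893.17; mm10 chromosome 11, 69095217 to 69109960, plus strand), with the E-box printed above, was at 192 and 196 CPM in Mr1-/- PD fluid, 174 and 158 CPM in Mr1-/- PBS, 175, 127 and 99.2 CPM in Mr1+/+ PD fluid, and 179.9, 184 and 169 CPM in Mr1+/+ PBS libraries. Per1 thus did the reverse of Per2: the genotypes overlapped, and Mr1+/+ PD fluid replicates 2 and 3 lay below the other 8 libraries. Per1 is also a glucocorticoid target. The 10 genes of a glucocorticoid response list, which does not hold Per1, summed to 1044.2 and 1050.9 CPM in Mr1-/- PD fluid, 995 and 1129.8 CPM in Mr1-/- PBS, 1646.3, 1542.2 and 1535.1 CPM in Mr1+/+ PD fluid, and 947, 917 and 1313.8 CPM in Mr1+/+ PBS libraries. Single genes of that list, named after their values were seen, did set Mr1+/+ PD fluid replicate 1 apart from replicates 2 and 3. In that replicate order Zbtb16 was at 43.2, 214 and 146 CPM, Dusp1 at 173, 83.9 and 81.2 CPM and Tsc22d3 at 476, 296 and 355 CPM. The part of a glucocorticoid response in the Per1 levels was not tested.

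The REV-ERB receptors repress Arntl and Npas2. Nr1d1 (ENSMUSG00000020889.11; mm10 chromosome 11, 98767932 to 98775333, minus strand) was at 131 and 133 CPM in Mr1-/- PD fluid, 119 and 116 CPM in Mr1-/- PBS, 117, 78.7 and 67.9 CPM in Mr1+/+ PD fluid, and 90.6, 94.5 and 102 CPM in Mr1+/+ PBS libraries. The genotypes of Nr1d1 met at Mr1+/+ PD fluid replicate 1, and replicates 2 and 3 of that group were the lowest. Exons of Thra on the opposite strand cover 8.55% of the exon bases of Nr1d1, and Thra was at 77.5, 102 and 91.2 CPM in Mr1+/+ PD fluid and at 53.2 to 62.5 CPM in the other 7 libraries, so part of the Nr1d1 and Thra reads cannot be told apart.

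Nr1d2 (ENSMUSG00000021775.11; mm10 chromosome 14, 18204054 to 18239127, minus strand) was at 105 and 101 CPM in Mr1-/- PD fluid, 124 and 108 CPM in Mr1-/- PBS, 96.5, 45.5 and 44.5 CPM in Mr1+/+ PD fluid, and 60.2, 59.6 and 75.9 CPM in Mr1+/+ PBS libraries. Nr1d2 followed Dbp and Per3 in both respects, with all Mr1-/- libraries highest and Mr1+/+ PD fluid replicates 2 and 3 lowest.

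The cryptochromes, the main transcriptional repressors of the loop, varied least. Cry1 (ENSMUSG00000020038.10; mm10 chromosome 10, 85131700 to 85185064, minus strand) ranged from 26.0 to 34.4 CPM over the 10 libraries, a 1.32-fold range. Cry2 (ENSMUSG00000068742.11; mm10 chromosome 2, 92403646 to 92434043, minus strand) was at 53.2 CPM in Mr1+/+ PD fluid replicate 1 and at 31.6 to 40.6 CPM in the other 9 libraries. Neither Cry1 nor Cry2 separated the genotypes or set Mr1+/+ PD fluid replicates 2 and 3 apart. An antisense transcript, D930015M05Rik, overlaps 4.67% of the exon bases of Cry2.

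Levels of different genes were compared per kilobase of exon. The median over libraries was highest for Nr1d1 at 35.4 CPM per kb, then Per1 at 30.9, Nr1d2 at 15.9, Dbp at 14.0, Cry1 at 9.15, Cry2 at 5.66, Per2 at 5.36, Per3 at 3.99, Clock at 3.27 and Npas2 at 0.631 CPM per kb. The ranges over libraries of every pair of neighbours in this order overlapped. Npas2 reached 5.32 CPM per kb in its highest library, above the 3.96 CPM per kb that Clock reached in its own.

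A log2 difference between activators and targets sums this up per library. The mean log2 CPM of Clock and Npas2 minus that of the 6 targets (Per1, Per2, Per3, Nr1d1, Nr1d2 and Dbp) was -3.64 and -3.44 in Mr1-/- PD fluid, -3.21 and -4.00 in Mr1-/- PBS, -2.49, 0.024 and -0.21 in Mr1+/+ PD fluid, and -2.54, -2.57 and -1.24 in Mr1+/+ PBS libraries. Mr1+/+ PD fluid replicates 2 and 3 had the highest values and the 4 Mr1-/- libraries the lowest. The activator mean varied mostly through Npas2, whose range over libraries was 41.7-fold, with 9 to 378 counts. The range of Clock was 2.10-fold. Cry1 and Cry2, also targets, were left out of that mean. With them among the targets the difference was -3.28 and -3.07 in Mr1-/- PD fluid, -2.82 and -3.63 in Mr1-/- PBS, -2.25, 0.015 and -0.24 in Mr1+/+ PD fluid, and -2.35, -2.42 and -1.04 in Mr1+/+ PBS libraries, so the same libraries were highest and lowest. These genes were combined with earlier results of these data known, so the difference is a description without a test. The hour of collection is not in the labels used here, and a difference in hour and a difference by group or library cannot be told apart.

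The spread within Mr1+/+ PD fluid was large for clock genes against other genes. Genes with a mean of at least 5 CPM over the 8 samples, 11697 in all, were compared. Npas2, with a mean of 8.14 CPM, met that minimum through its few high samples, so its rank is not given. Over the 3 samples of Mr1+/+ PD fluid the range of log2 CPM had a median of 0.78 over the other 9 members and of 0.34 over all genes compared, and 9 of the 9 were above that median of all genes. Dbp spanned 2.32, Per3 1.79 and Nr1d2 1.11 on the log2 scale, wider than 99.6%, 99.3% and 96.9% of these genes, and Npas2 spanned 2.58. In Mr1-/- PBS, with 2 samples, the medians were 0.24 for the 9 members and 0.20 for all genes, and in Mr1+/+ PBS, with 2 samples, 0.19 for the 9 members and 0.26 for all genes. Npas2 spanned 1.28 in Mr1-/- PBS and 1.69 in Mr1+/+ PBS, where Clock spanned 1.004.

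Sums of other gene lists also placed Mr1+/+ PD fluid replicate 1 below or above both replicates 2 and 3. Pancreatic acinar genes summed to 147, 3305.4 and 3884.0 CPM in replicates 1, 2 and 3, adipocyte markers to 16063.8, 20554.8 and 24686.3 CPM, mesothelial markers to 512, 199 and 210.4 CPM, and 6 erythroid genes to 241, 85.3 and 111 CPM. The 9 immediate early genes, which respond within minutes to stimulation, summed to 467, 349 and 380.3 CPM. Single genes of these lists ran the other way. The adipocyte marker Lep was at 415, 158 and 169 CPM. Of the immediate early genes, Jun was at 70.8, 84.0 and 97.5 CPM and Egr2 at 9.61, 13.3 and 13.4 CPM. The 8 B cell markers, at 1361.8, 1203.1 and 1179.8 CPM, differed less. The part of these differences in the clock gene levels was not tested. In bulk tissue, fewer cells of a type and less RNA per cell cannot be told apart.

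The first comparison asks how PD fluid affected these genes in Mr1+/+ mice. Of the 10 members, edgeR called 0 at an adjusted p under 0.05 (14.9% of all tested genes were called), 0 had an unadjusted p under 0.05 (34.1% of all), and DESeq2 called 0 (25% of all). The median absolute log2 fold change was 0.20 over the members and 0.43 over all genes. Npas2 was at 1.34 (SE 0.91, adjusted p = 0.35), Per1 at -0.40 (SE 0.22, adjusted p = 0.24), Cry2 at 0.30 (SE 0.19, adjusted p = 0.30), Dbp at -0.34 (SE 0.80, adjusted p = 0.79) and Per3 at -0.26 (SE 0.54, adjusted p = 0.77). Per1, the member whose change came nearest to the test's threshold here, had samples that overlapped between the groups. Only Cry2 had samples that did not overlap, higher after PD fluid, beside 25% of all tested genes higher and 25.6% lower. Its lowest PD fluid sample was at 35.7 CPM and its highest PBS sample at 35.6 CPM. By single library Cry2 overlapped, as PBS replicate 2 lay above PD fluid replicate 3. Cell type markers moved in the same comparison: edgeR called 9 of 10 adipocyte markers higher (median log2 fold change 1.70) and 8 of 8 B cell markers lower (median -1.10), against a median of -0.06 over all genes.

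These values rest on Mr1+/+ PD fluid replicate 1. Without it, Dbp was at -1.53 (adjusted p = 0.013) and Per3 at -1.02 (adjusted p = 0.022) and both passed, when 14% of all genes did. Without Mr1+/+ PD fluid replicate 3, Dbp was at 0.0095 and Per3 at 0.054. Without replicate 2 of that group, Dbp was at 0.037 and Per3 at -0.0092. Npas2 was at 2.43 when PBS replicate 3, which held the intestinal transcripts, was left out, and at 0.89 without Mr1+/+ PD fluid replicate 2, and it passed in neither fit.

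The same question in Mr1-/- mice rests on 1 sample with PD fluid and 2 with PBS. EdgeR called 0 of the 10 members (0% of all genes), DESeq2 called 0 (0.0715% of all), and 0 members had an unadjusted p under 0.05 (1.5% of all). The log2 fold changes ran from -0.19 for Per2 (SE 0.25) to 0.23 for Per1 (SE 0.30), with adjusted p = 1 for each member. The median absolute change was 0.13 over the members and 0.15 over all genes. Samples did not overlap for 4 members: Per1, Cry2 and Nr1d1 were higher and Nr1d2 lower with PD fluid, beside 28.7% and 27.9% of all genes higher and lower. By single library Cry2 overlapped, as PD fluid replicate 2 lay below PBS replicate 1. With SEs of 1.30 for Npas2 and 1.07 for Dbp, sizeable differences of these genes would not have been detectable. Pancreatic acinar genes were higher in the same comparison, at a median log2 fold change of 3.47 over 8 genes, and their part was not tested.

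**Figure D3:**
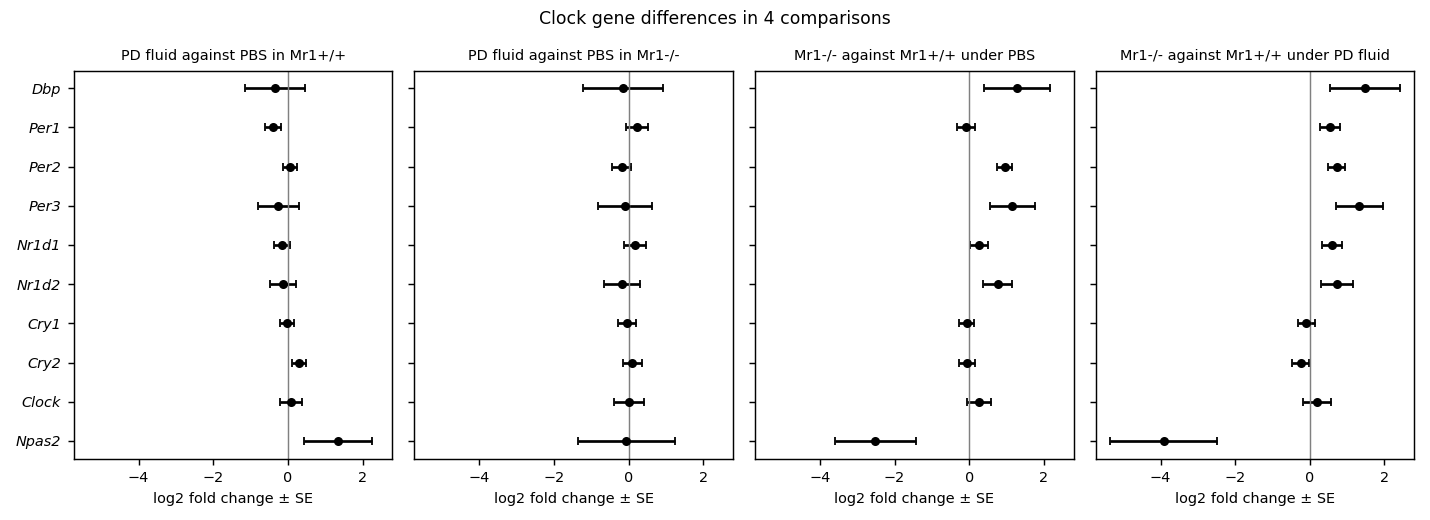
Log2 fold change (x axis) of each clock gene (y axis) in 4 comparisons, with bars of 1 SE from edgeR. Values lie near 0 for PD fluid in either genotype apart from Npas2 at 1.34 in Mr1+/+, and Npas2 lies at -2.51 and -3.91 in the genotype comparisons, where Dbp, Per2, Per3 and Nr1d2 lie above 0.

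Under PBS, the genotype comparison set 2 Mr1-/- samples against 2 Mr1+/+ samples. EdgeR called 0 of 10 members (0.013% of all genes were called), with 1 member at an unadjusted p under 0.05 (8.64% of all). That member was Per2, at 53.9 ± 10.5 CPM in Mr1-/- and 28.0 ± 2.66 CPM in Mr1+/+ (SD, n = 2 each), a log2 fold change of 0.95 (SE 0.21, adjusted p = 0.57). DESeq2 called Per2 alone among the members (0.94, adjusted p = 0.017), and 1.37% of all genes. With the 10 libraries as separate samples Per2 passed as well (0.98, adjusted p = 0.039; 0.337% of all genes passed). Npas2 was at -2.51 (SE 1.07, adjusted p = 0.57), Dbp at 1.285 (SE 0.89, adjusted p = 0.66), Per3 at 1.16 (SE 0.60, adjusted p = 0.59) and Nr1d2 at 0.77 (SE 0.39, adjusted p = 0.58). The median absolute log2 fold change was 0.52 over the members and 0.25 over all genes. Samples did not overlap for Per2, Per3, Nr1d1, Nr1d2 and Dbp, all higher in Mr1-/-, and Npas2, lower in Mr1-/-, beside 20.5% and 18.1% of all genes.

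Under PD fluid, 1 Mr1-/- sample stood against 3 Mr1+/+ samples. EdgeR called 0 of 10 members (0.013% of all genes), with Npas2 and Per2 at an unadjusted p under 0.05 (19.1% of all), and DESeq2 called 0 members (6.73% of all). Npas2 was at -3.91 (SE 1.44, adjusted p = 0.23), Dbp at 1.47 (SE 0.94, adjusted p = 0.46), Per3 at 1.33 (SE 0.64, adjusted p = 0.32), Per2 at 0.72 (SE 0.23, adjusted p = 0.17) and Nr1d1 at 0.59 (SE 0.27, adjusted p = 0.28). Per1, Per2, Per3, Nr1d1, Nr1d2 and Dbp were higher in the Mr1-/- sample than in each Mr1+/+ sample (36% of all genes were), and Npas2 was lower (33.9% of all). Treating the 10 libraries as separate samples let Npas2, Per2 and Nr1d1 pass (22.9% of all genes did). That fit understates the spread if a near-identical pair is 1 sample.

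The genotype comparisons and the PD fluid comparisons share samples, so their values are not independent. Over both treatments, 3 Mr1-/- samples against 5 Mr1+/+ samples, 4 members did not overlap and were higher in Mr1-/- (6.9% of all genes) and 1 was lower (3.78% of all). These were Dbp at 60.7 to 78.8 CPM in Mr1-/- and 9.53 to 47.9 CPM in Mr1+/+ samples, Per3 at 58.1 to 73.4 and 13.0 to 44.9 CPM, Nr1d2 at 102 to 123 and 44.3 to 96.0 CPM, Per2 at 46.5 to 61.4 and 24.4 to 32.7 CPM, and, lower, Npas2 at 0.609 to 1.63 and 3.01 to 25.4 CPM. Liver transcripts followed genotype as well. The 8 liver genes summed to 88.0 to 145 CPM in Mr1-/- libraries and to 1.44 to 5.42 CPM in Mr1+/+ libraries other than PBS replicate 3, at 248 CPM. In that replicate, which also held the intestinal transcripts, Apoa1 was at 141 CPM and Apob at 93.7 CPM. Alb was at 0.491 CPM there, at 0.215 to 2.17 CPM over the Mr1+/+ samples and at 64.1 to 107 CPM in Mr1-/- samples. The part of the liver transcripts in the clock gene levels was not tested, and genotype cannot be told apart from whatever else differed between these mice.

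The difference of the PD fluid effect between genotypes (interaction) was called for 0 of 10 members by edgeR (0% of all genes) and by DESeq2 (3.17% of all), and 0 members had an unadjusted p under 0.05 (13.2% of all). The largest were Npas2 at -1.40 (SE 1.61) and Per1 at 0.62 (SE 0.37), with adjusted p = 0.73 and 0.47.

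Of 20 other clock genes (regulators of the loop, its kinases and its ubiquitin ligases), 19 were tested, and edgeR called 1 after PD fluid in Mr1+/+ (14.9% of all genes were called) and 0 in each other comparison. Nfil3, the D-box repressor, rose after PD fluid in Mr1+/+ by 1.35 on the log2 scale (SE 0.32, adjusted p = 0.031), when 8.49% of all genes rose. It was at 16.6, 34.7 and 32.1 CPM in Mr1+/+ PD fluid and 10.03, 9.38 and 12.1 CPM in Mr1+/+ PBS libraries, and replicates 2 and 3 of PD fluid were the highest. Without replicate 2 the change of Nfil3 was 1.18 (adjusted p = 0.090), and without replicate 3 it was 1.22 (adjusted p = 0.11). Without replicate 3 edgeR called 0 of all genes in this comparison, and without replicate 2 fewer than with all samples. With Mr1+/+ PBS replicate 3 as the only PBS sample the change of Nfil3 was 1.21. The part of the higher adipocyte and lower B cell markers in this rise was not tested. In Mr1-/- libraries Nfil3 was at 10.4 and 11.8 CPM with PD fluid and 7.46 and 7.55 CPM with PBS.

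The BMAL1 gene stood high where the targets stood low. Arntl, with the ROR element core printed above, was at 20.3 and 21.9 CPM in Mr1-/- PD fluid, 20.05 and 19.3 CPM in Mr1-/- PBS, 24.6, 40.4 and 37.5 CPM in Mr1+/+ PD fluid, and 26.0, 35.0 and 32.5 CPM in Mr1+/+ PBS libraries. Arntl was lower in every Mr1-/- library than in every Mr1+/+ library and highest in Mr1+/+ PD fluid replicates 2 and 3. By sample, 3.78% of all genes were lower in Mr1-/- without overlap. Rora, a receptor that activates through the ROR element, ranged from 11.5 to 34.5 CPM and set apart neither the Mr1-/- libraries nor those 2 replicates.

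The relatives of Dbp followed it. Tef, a D-box activator, was at 194 and 204 CPM in Mr1-/- PD fluid, 217 and 209 CPM in Mr1-/- PBS, 178, 84.4 and 81.5 CPM in Mr1+/+ PD fluid, and 124, 127 and 122 CPM in Mr1+/+ PBS libraries. Hlf, the other D-box activator, was at 34.6 and 35.5 CPM in Mr1-/- PD fluid, 28.8 and 48.6 CPM in Mr1-/- PBS, 29.4, 9.38 and 9.57 CPM in Mr1+/+ PD fluid, and 12.6, 12.7 and 12.0 CPM in Mr1+/+ PBS libraries. Ciart, with 3 E-boxes in the promoter printed above, lay between 9.24 and 13.7 CPM in the 4 Mr1-/- libraries and was at 4.11, 2.43 and 2.86 CPM in Mr1+/+ PD fluid and 4.39 to 5.27 CPM in Mr1+/+ PBS libraries. Tef, Hlf and Ciart were thus all lowest in Mr1+/+ PD fluid replicates 2 and 3, and Tef and Ciart separated the genotypes without overlap. By sample, 2 of the 19 other clock genes tested were higher in Mr1-/- without overlap (6.9% of all genes were). Of the same 19, 1 was lower (3.78% of all) and 16 overlapped.

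The E-box repressors Bhlhe40 and Bhlhe41 had another pattern. Bhlhe40 was at 143 and 139 CPM in Mr1-/- PD fluid, 76.3 and 74.8 CPM in Mr1-/- PBS, 99.1, 70.0 and 70.1 CPM in Mr1+/+ PD fluid, and 73.6 to 79.4 CPM in Mr1+/+ PBS libraries. Bhlhe41 was at 13.6 and 15.1 CPM in Mr1-/- PD fluid and 4.45 to 8.97 CPM in the other 8 libraries, with exons of the antisense gene Gm43909 over 19.0% of its exon bases. For both, the Mr1-/- PD fluid libraries were the highest, though neither passed in any comparison. The sum of the immediate early genes was also highest there, at 627 and 621 CPM in Mr1-/- PD fluid and 349 to 487 CPM in the other 8 libraries. By sample, Egr1, Nr4a1, Atf3 and Fosb were highest in Mr1-/- PD fluid, while Fos, Jun, Junb, Ier2 and Egr2 were not. The part of the immediate early genes was not tested.

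Of 8 clock output genes, edgeR called 1, Tspan4, after PD fluid in Mr1+/+, when 14.9% of all genes were called and 8.49% rose, and 0 in each other comparison. Tspan4, a tetraspanin, was at 71.1, 65.0 and 73.8 CPM in Mr1+/+ PD fluid and 41.6, 42.9 and 39.0 CPM in Mr1+/+ PBS libraries, a rise of 0.78 (SE 0.15, adjusted p = 0.018) that did not set replicates 2 and 3 apart. Leaving out PD fluid replicate 2 or replicate 3 of Mr1+/+ ended the call of Tspan4 (adjusted p = 0.052 and 0.081). The rises were then 0.85 and 0.73. Without replicate 3 edgeR called 0 of all genes in this comparison, and without replicate 2 fewer than the 2286 called with all samples. Adipocyte markers were higher and B cell markers lower in the same comparison (medians of 1.70 and -1.10), and their part in the rise of Tspan4 was not tested. The opposite-strand gene Chid1 covers 13.4% of its exon bases. Usp2, a deubiquitinase, was at 42.0 CPM in Mr1-/- PBS replicate 2 and at 12.3 to 21.3 CPM elsewhere. Tsc22d3, a glucocorticoid-induced gene that also cycles, was at 296 to 476 CPM, lowest in Mr1+/+ PD fluid replicate 2.

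Among 11539 genes with a mean of at least 5 CPM and a named symbol, likeness to Dbp was ranked by Pearson r of log2 CPM over the 8 samples, as a description without a test. The samples share group structure, so high values arise for many genes. Of the members, Per3 (r = 0.96), Nr1d2 (0.94), Nr1d1 (0.92), Per2 (0.80) and Per1 (0.79) were like Dbp, and Npas2 (-0.965) was its opposite, while Clock (-0.0094), Cry2 (-0.10) and Cry1 (-0.50) were neither. The 5 genes outside the 10 with the highest r were Nmi (0.99), Tef (0.98), Mndal (0.97), Snw1 (0.97) and Hspa14 (0.97). The 5 with the lowest r were Amdhd2 (-0.99), Mcph1 (-0.98), Iars2 (-0.97), Nkiras2 (-0.97) and Arntl (-0.966). Ranked over all these genes, Tef was 3rd from the top and Arntl 5th from the bottom. Hlf (0.93) and Nfil3 (-0.89) lay within 0.555% and 1.66% of the ends. Npas2 and Ciart (0.90) met the minimum of 5 CPM only through their high samples, so their ranks are not given.

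**Figure D4:**
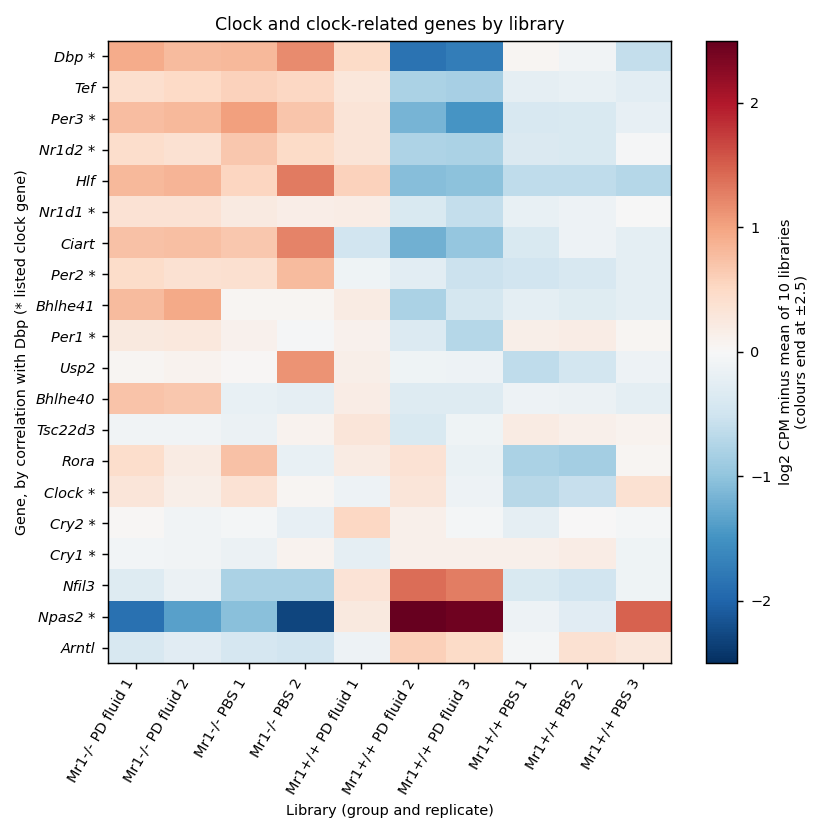
Log2 CPM of 20 clock and clock-related genes in each library, minus the gene's mean over the 10 libraries (colour; red above, blue below, colours end at ±2.5; rows by r with Dbp, * for the 10 listed genes). In Mr1+/+ PD fluid replicates 2 and 3, Dbp, Tef, Per3, Nr1d2 and Hlf are blue and Npas2, Nfil3 and Arntl red, and the 4 Mr1-/- libraries show the reverse for Dbp, Per3 and Npas2.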

How the data were processed

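RNA of mouse peritoneum was sequenced in 10 libraries. Per the labels' protocols, messenger RNA was captured on poly-T beads, copied with random primers and amplified by PCR. They name no strand-marking step or molecular identifier, so overlapping genes on opposite strands cannot be told apart, and intervals cover counting error and sample spread only. The table that the authors deposited holds raw whole-number counts for each gene symbol. The submitters' processing notes name the build mm10. The aligner, the counter and the gene models behind the counts are not stated in the sources used here. Rows sharing a symbol (21899 rows, 21877 symbols) were summed. Coordinates, exon lengths and overlaps came from GENCODE M21.

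The 10 genes and the other gene lists were chosen with earlier results of these data known. Near-identical replicates were summed. Genes were filtered with filterByExpr, scaled by TMM and tested with edgeR 4.0.16 (R 4.3.3, quasi-likelihood F test with robust shrinkage, 4 group means, 4 residual degrees of freedom), with Benjamini-Hochberg adjustment over all tested genes and a threshold of 0.05. Each SE is the log2 fold change divided by the root of F. Log2 CPM used a prior count of 2. Alternatives were DESeq2 1.42.0, RLE size factors, no filter, the compared groups alone, the 10 separate libraries with and without a replicate block, and leaving out libraries. The fit was also run on simulated data, and the outcome of that run is not given here. Named genes were all 10 members, 10 related genes whatever their result (1 more of that list is not reported here), any list member called, and the 5 genes most and least like Dbp.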

Additional observations from a re-analysis of the deposited data

Results flagged for a closer look

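Per1 was flagged because its samples moved one way with PD fluid in Mr1-/- and the other way in Mr1+/+. The Mr1-/- PD fluid sample was 0.23 above the mean of its PBS samples on the log2 scale, and the 3 Mr1+/+ PD fluid samples were -0.82 to -0.0087 from theirs. The difference between the effects was 0.62 (SE 0.37) with an adjusted p of 0.47 from edgeR, so it did not pass the test, and the Mr1-/- side rests on 1 sample.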

How the results depend on the processing

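With 1 to 3 samples a group, fold changes of Npas2 and Dbp are known only to within SEs of 0.80 to 1.61, and Npas2 has 9 to 24 counts in Mr1-/- libraries. Where a value below changed, the cause was not tested beyond what the setting itself alters.

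All genes called, given for PD fluid in Mr1-/-, PD fluid in Mr1+/+, genotype under PD fluid, genotype under PBS and the interaction, were 0, 2286, 2, 2 and 0. They were 2, 5549, 3400, 50 and 1490 with 10 separate libraries, and 11, 3845, 1036, 211 and 488 with DESeq2. With the replicate block they were 0, 5537, 2428, 3 and 1915. Whether the replicate numbers pair the samples is not known. Deviations from group means correlated at -0.130 to 0.150 over 13 same-numbered pairs, 1 of them over 0.1. In groups of 2 libraries these deviations mirror each other, so the correlations can hardly show or exclude pairing. Without a filter the genotype counts were 7 under PD fluid and 6 under PBS, and with only the groups compared 561 and 0. With Mr1+/+ PBS replicates 1 and 2 left out, a choice made after seeing the data, PD fluid in Mr1+/+ gave 1525, genotype under PBS 665 and the interaction 311. Leaving out 1 library gave 0 to 1, 0 to 2751, 0 to 33, 1 to 3 and 0 to 1, with 339 for PD fluid in Mr1+/+ without PD fluid replicate 2, 0 without replicate 3 and 2751 without PBS replicate 3.

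Clock genes called, 0 in each comparison as reported, were 3 for genotype under PD fluid and 1 under PBS with 10 libraries, 1 for genotype under PBS with DESeq2, 2 for genotype under PD fluid (Npas2, Per2) and 1 for PD fluid in Mr1+/+ (Per1) with the block, and 0 to 2 for PD fluid in Mr1+/+ when 1 library was left out.

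Log2 fold changes kept their direction and side of the threshold in 793 of the recomputed values, and 46 changed sign. Without Mr1+/+ PBS replicates 1 and 2, PD fluid in Mr1+/+ gave -0.33 for Clock, -0.031 for Per2, 0.13 for Cry1 and 0.0019 for Dbp, genotype under PBS gave -0.16 for Clock and 0.067 for Cry1, and the interaction gave 0.36 for Clock, 0.11 for Nr1d2 and -0.14 for Dbp. The interaction of Cry1 was 0.0030 with 10 libraries and 0.013 with the block. Leaving out 1 library gave these ranges. For PD fluid in Mr1-/-, Clock was -0.14 to 0.18, Npas2 -0.60 to 0.81, Per2 -0.37 to 0.028, Per3 -0.24 to 0.096, Cry1 -0.16 to 0.073 and Dbp -0.33 to 0.047. For PD fluid in Mr1+/+, Clock was -0.064 to 0.66, Per2 -0.054 to 0.15, Per3 -1.02 to 0.054, Cry1 -0.14 to 0.090, Nr1d1 -0.41 to 0.00057, Nr1d2 -0.60 to 0.069 and Dbp -1.53 to 0.037. For genotype under PBS, Cry1 was -0.19 to 0.046 and Cry2 -0.14 to 0.020. For the interaction, Clock was -0.65 to 0.11, Per3 -0.13 to 0.94, Cry1 -0.15 to 0.093, Nr1d2 -0.23 to 0.43 and Dbp -0.18 to 1.38.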
